A study of Mus musculus with 13 samples.

Results

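Mouse embryonic stem cells (ESC) were compared with mouse embryonic fibroblasts (MEF), the starting population and the pluripotent reference of a study of reprogramming by chemicals. The comparison took 3 ESC and 3 MEF libraries out of 13 in the series and all 15176 genes that had a row of their own in the table of expression values. The ESC were the R1 line, strain 129, kept on feeder layers of MEF that had been stopped from dividing with mitomycin C. The MEF were embryonic cells of strain C57xICR, grown in DMEM with high glucose and fetal bovine serum. Both groups were labelled as embryo stage with no chemical treatment, and total RNA was extracted with a QIAGEN RNeasy kit. R1 is 1 line, and cell type, strain, culture medium and feeder layer change together between the groups, so they cannot be told apart. The labels do not say that the 3 libraries of a group came from separate cultures, so p-values measure only the spread between these libraries, which may be technical.

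ESC are derived from the inner cell mass of the blastocyst, divide rapidly with a short first gap phase and can give rise to all tissues of the embryo. Embryonic fibroblasts are adherent mesenchymal cells that secrete and remodel extracellular matrix and divide a limited number of times in culture. Transcription factors of pluripotency and structural genes of connective tissue separate these cells by definition. The account below is about other classes of genes, chosen from 46 lists that follow the parts of a cell: nucleus, genome, RNA and protein synthesis, metabolism, organelles, matrix, surface and defence.

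Values were RPKM, read counts scaled by the authors to the length of the gene and the size of the library. In these 6 libraries the length, as inferred from the values, was the span of the gene with its introns, so a gene with long introns has a low value. Differences are ESC minus MEF on the log2(RPKM + 1) scale, which understates the change of genes at low levels. A gene was called higher or lower in ESC where the limma adjusted p was under 0.05 and the difference was 1 or more on that scale. Depth estimated from the steps between low values and rounded was 10000000 to 13200000 reads in ESC and 9600000 to 17700000 reads in MEF. The libraries are named ESC1, ESC2, ESC3, MEF1, MEF2 and MEF3 below, and values are given in that order. ESC3 and MEF3 stood apart from the others. Each came from a kind of column that holds 0.001 where the others hold 0, and their correlations with the other libraries of the group were 0.86 and 0.863 in ESC and 0.818 and 0.824 in MEF, against 0.922 and 0.952 between the first 2 libraries of each group. The groups did not overlap in any of the 1395 called genes, but also not in 6194 of all 15176 genes (40.8%). A lack of overlap in a called gene named below thus adds nothing to its call. The calls used all 6 libraries, so the shared direction of ESC3 and MEF3 with the other 4 libraries is no separate check. Of the called genes, 1170 differed by 1 or more between ESC3 and MEF3. Fewer cells of a type and less RNA per cell cannot be told apart in such bulk libraries.

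The markers followed the labels in the 6 libraries. The pluripotency factor Pou5f1 was at 86.2, 95.7 and 152 RPKM in the ESC libraries and 0, 0 and 0.154 RPKM in the MEF libraries. Thy1, a surface protein of fibroblasts, was at 2.61, 2.08 and 1.31 RPKM in the ESC libraries and 186, 163 and 56.8 RPKM in the MEF libraries. The markers Nanog, Sox2 and Dppa5a were called higher in ESC, and Col1a1 and H19 were called lower, with no overlap between the groups. The ESC grew on MEF feeders, and the summed level of a list of 25 fibroblast genes was 51.36 to 101.8 RPKM in ESC, highest in ESC3, and 2717 to 7153 RPKM in MEF. The list took 0.238, 0.254 and 0.306% of the estimated reads in ESC and 5.3, 5.16 and 11% in MEF. The part of feeder RNA in the ESC values of genes high in MEF was not tested.

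Of the 15176 genes, 1395 (9.19%) were called, 710 higher in ESC (4.68%) and 685 lower (4.51%). The median difference over all genes was 0.04. A positive difference was found in 8820 of the 15176 genes and a negative one in 6356, the background for counts of sign given below. In 6275 genes every library was under 1 RPKM, where a difference of 1 in log2(RPKM + 1) cannot be reached. Classes of expressed genes are thus set below against a background that includes genes that cannot be called. Among the 7697 genes at 1 RPKM or more in 2 libraries, a separate fit called 1688, 832 higher and 856 lower. The median there was 0.213. With each library centred on its median expressed gene, the median over all genes moved to −0.11 and the calls were 547 higher and 1087 lower. List medians given below kept their sign under that centring and under quantile normalization unless said otherwise. The number of calls was 650 without ESC1, 756 without ESC2, 1162 without ESC3, 610 without MEF1, 583 without MEF2 and 1335 without MEF3, and 470 genes (181 higher and 289 lower) kept their call whichever library was left out. A called gene named below kept its call in all 6 such fits unless the text says that it lost it, with the libraries whose removal had that effect and the highest limma adjusted p among those fits. With 3 libraries per group an exact permutation test of 1 gene cannot give a p below 0.1, so calls rest on the spread that limma shares among genes.

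Promoters of 6 genes from 3 classes are shown first, since other members of each class held the same short word. The windows are from RefSeq (GRCm38.p6) and run from 250 bases before to 50 bases after the start of the gene, 5′ to 3′ on the strand of the gene. Only the first listed window of each gene symbol was used. Of the genes in the table, 11600 (76.4%) had a window, and 2308 of these had several. A gene without a match may thus hold the word in a window that was not searched. Capitals mark the match to the searched word on either strand. For antigen presentation the word was the interferon-stimulated response element, searched as GAAA, any 2 bases and GAAA again, which was in 3.49% of all 27025 windows and in 2.81% of those of genes in the table. It was in 4 of the 13 windows (30.8%) found for the 16 genes of that list. B2m (chr2:122147437-122147736, plus strand) codes for the light chain of major histocompatibility complex (MHC) class I, and H2-T23 (chr17:36032652-36032951, minus strand) for a non-classical heavy chain. In B2m the match begins at base 112 of the window, and in H2-T23 it lies on the opposite strand from base 127.
B2m: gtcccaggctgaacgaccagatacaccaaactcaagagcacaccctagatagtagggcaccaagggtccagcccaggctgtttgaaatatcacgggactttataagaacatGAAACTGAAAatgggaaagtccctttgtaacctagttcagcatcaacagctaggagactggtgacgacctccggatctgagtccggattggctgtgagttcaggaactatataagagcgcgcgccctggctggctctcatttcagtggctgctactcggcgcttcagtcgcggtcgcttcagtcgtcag
H2-T23: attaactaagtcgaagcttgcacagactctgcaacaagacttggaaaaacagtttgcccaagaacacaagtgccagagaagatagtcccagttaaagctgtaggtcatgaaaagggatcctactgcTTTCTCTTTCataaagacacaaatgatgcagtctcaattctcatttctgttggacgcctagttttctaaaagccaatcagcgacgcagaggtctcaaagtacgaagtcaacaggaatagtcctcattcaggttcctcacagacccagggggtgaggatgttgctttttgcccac
For DNA replication the word was the E2F site, searched as TTTCCCGC, in 1.11% of all windows and 2.04% of those of genes in the table. It was in 8 of the 36 windows (22.2%) found for 44 genes: Mcm3, Mcm7, Orc3, Cdc6, Gins3, Rfc3, Pold1 and Pold3. Of these, Mcm3, Mcm7 and Pold3 were called higher in ESC. Mcm3 (chr1:20820263-20820562, minus strand) is a subunit of the replicative helicase and Pold3 (chr7:100121453-100121752, minus strand) an accessory subunit of DNA polymerase delta. The match begins at base 270 of the Mcm3 window, on the opposite strand, and at base 268 of the Pold3 window.
Mcm3: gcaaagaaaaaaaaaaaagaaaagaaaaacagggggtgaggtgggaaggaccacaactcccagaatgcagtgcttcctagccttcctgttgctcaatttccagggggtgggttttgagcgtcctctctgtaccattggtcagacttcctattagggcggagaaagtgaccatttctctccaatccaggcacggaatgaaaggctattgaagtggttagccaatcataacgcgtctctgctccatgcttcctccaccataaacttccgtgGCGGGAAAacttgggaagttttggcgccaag
Pold3: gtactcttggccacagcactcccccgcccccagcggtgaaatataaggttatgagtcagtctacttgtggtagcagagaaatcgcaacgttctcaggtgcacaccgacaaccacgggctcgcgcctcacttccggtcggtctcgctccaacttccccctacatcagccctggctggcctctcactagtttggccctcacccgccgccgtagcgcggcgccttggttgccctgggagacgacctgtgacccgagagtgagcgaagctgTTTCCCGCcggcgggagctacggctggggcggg
For germline genes the word was the palindromic E-box, CACGTG, in 7.24% of all windows and 9.84% of those of genes in the table. It was in 12 of 27 windows found for 32 genes (44.4%). None of these 12 genes was called by the rule above. The share was 33.3% on the list of the insulin-like growth factor axis and 26.3% on the mismatch and base excision repair list. Stag3 (chr5:138280259-138280558, plus strand) codes for a cohesin subunit of meiosis and Slc25a31 (chr3:40708621-40708920, plus strand) for an ADP/ATP carrier of testis. The E-box begins at base 81 and base 158 of these windows.
Stag3: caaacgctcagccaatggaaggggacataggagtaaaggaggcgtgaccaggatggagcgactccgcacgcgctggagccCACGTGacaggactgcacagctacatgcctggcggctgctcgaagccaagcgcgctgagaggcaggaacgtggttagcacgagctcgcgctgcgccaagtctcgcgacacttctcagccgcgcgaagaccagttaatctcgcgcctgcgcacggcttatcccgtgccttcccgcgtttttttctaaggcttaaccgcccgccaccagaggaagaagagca
Slc25a31: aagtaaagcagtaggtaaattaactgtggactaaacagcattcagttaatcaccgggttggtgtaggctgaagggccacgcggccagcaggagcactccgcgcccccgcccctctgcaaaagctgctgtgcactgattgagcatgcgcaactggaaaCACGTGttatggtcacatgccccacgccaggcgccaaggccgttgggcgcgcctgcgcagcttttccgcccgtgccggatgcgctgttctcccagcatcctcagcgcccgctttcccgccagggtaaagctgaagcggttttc
Other words were searched on these and other lists, and the 3 pairs of class and word shown are a selection. Among those not shown was the TEAD site, in 26.1% of the windows of the Hippo list against 2.56% of those of genes in the table. Such matches describe the letters and do not show that a factor was bound.

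**Figure D1:**
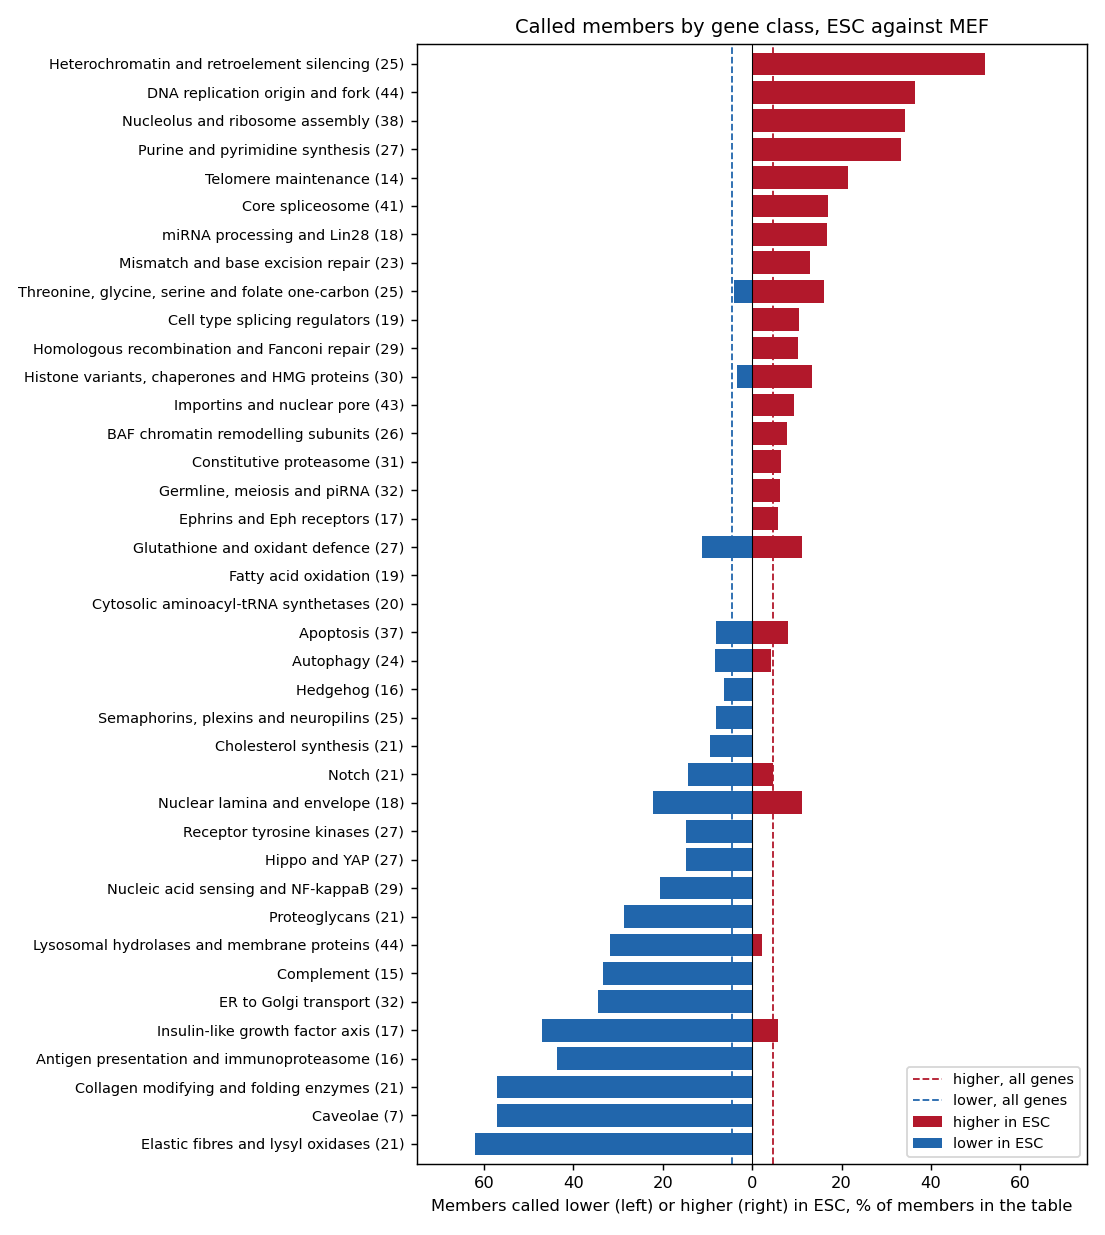
Share of the members of each gene class that were called higher (red, right) or lower (blue, left) in ESC, in percent of the members in the table (number in brackets). Dashed lines are the shares over all genes, 4.68% higher and 4.51% lower, and the longest bars are those of heterochromatin genes on the right and of elastic fibre genes on the left.

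The nucleus is described first. Of 25 genes of the machinery that silences retroelements and packs heterochromatin, 13 were called higher in ESC and 0 lower, with a median difference of 1.23 against 0.04 over all genes. Zfp57, a zinc finger protein that keeps imprinted regions methylated, was at 36.6, 37.3 and 18.7 RPKM in the ESC libraries and 1.59, 2.69 and 3.26 RPKM in the MEF libraries. The groups did not overlap, and the difference was 3.15 ± 0.36 (SE, n = 3 per group, limma adjusted p = 0.00597). Trim28, the corepressor that such zinc finger proteins recruit, was at 91, 111 and 182 RPKM in ESC against 17.9, 17.6 and 39.7 in MEF. ESC3 and MEF3 were the highest library of each group, and the difference was 2.35 ± 0.45 (SE, n = 3 per group, limma adjusted p = 0.0238). Rif1, which sets replication timing and represses retroelements, was at 8.78, 6.7 and 5.94 RPKM in ESC against 0.863, 1.15 and 0.279 in MEF, with a difference of 2.23 ± 0.27 (SE, n = 3 per group, limma adjusted p = 0.0076). Cbx1, a heterochromatin protein of the HP1 family, differed by 1.97 ± 0.28 (SE, n = 3 per group, limma adjusted p = 0.0107) with every ESC library above every MEF library. Mphosph8, a subunit of the HUSH silencing complex, differed by 1.40 ± 0.21 (SE, n = 3 per group, limma adjusted p = 0.013). Of the enzymes that methylate lysine 9 of histone H3, Setdb1 and Suv39h2 were called, with differences of 1.10 ± 0.20 and 1.35 ± 0.31. Suv39h1, Ehmt1 and Ehmt2 differed by −0.06 ± 0.29, 0.16 ± 0.14 and −0.32 ± 0.76 and were not called (limma adjusted p = 0.908, 0.475 and 0.806). The list held 1.03, 1.16 and 1.22% of the estimated reads in ESC and 0.284, 0.271 and 0.322% in MEF, with no overlap between the groups. The count of 13 depended on the libraries: it was 5 without ESC1, 5 without ESC2, 4 without MEF1 and 5 without MEF2. Trim28 lost its call without any library but MEF3 (limma adjusted p up to 0.0896), Suv39h2 without any library but ESC3 (0.117), Setdb1 without ESC1, MEF1 or MEF2 (0.0777) and Mphosph8 without MEF1 (0.0522).

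In the nuclear lamina, genes were called in both directions. Its 18 genes took 0.2, 0.196 and 0.197% of the estimated reads in ESC and 0.199, 0.191 and 0.204% in MEF, so the groups overlapped. Within the list 2 genes were called higher, Lmnb1 and Lbr, and 4 lower, Lmna, Sun2, Tor1aip1 and Tmem43. Lmnb1, a B-type lamin, was at 5.66, 6.87 and 7.77 RPKM in ESC against 1.18, 1.75 and 1.39 in MEF, a difference of 1.67 ± 0.21 (SE, n = 3 per group, limma adjusted p = 0.00774). Lmna, the gene of the A-type lamins of differentiated cells, was at 0.128, 0.166 and 1.19 RPKM in ESC against 8.74, 4.76 and 25.6 in MEF, a difference of −3.00 ± 0.61 (SE, n = 3 per group, limma adjusted p = 0.0287). The groups did not overlap for either gene, and MEF3 was the highest library for Lmna. Sun2, which ties the lamina to the cytoskeleton, differed by −1.69 ± 0.23 (SE, n = 3 per group, limma adjusted p = 0.00969). Lbr, the lamin B receptor that tethers heterochromatin, differed by 1.24 ± 0.21 (SE, n = 3 per group, limma adjusted p = 0.0183). Tmem43 and Tor1aip1, membrane proteins of the nuclear envelope, differed by −1.27 and −1.75. Emd, Banf1 and Tmpo, other partners of the lamina, were not called and differed by −0.10, 0.90 and 0.34. The median of the list was 0.05 and turned to −0.1 with libraries centred. Tor1aip1 lost its call without ESC1, ESC2, MEF1 or MEF2 (limma adjusted p up to 0.0851), Lbr without ESC1, ESC2 or MEF1 (0.069), Lmna without ESC1, ESC2 or MEF1 (0.0897) and Tmem43 without ESC1, ESC2 or MEF2 (0.068).

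Histone chaperones and variants gave 4 genes called higher, Nasp, H2afz, Supt16h and Hmgb3, and 1 lower, H1f0, out of 30. Nasp, a chaperone of H3 and H4, was at 23.2, 17.4 and 19.6 RPKM in the ESC libraries and 1.98, 1.5 and 1.58 RPKM in the MEF libraries. All ESC values were above all MEF values, and the difference was 2.96 ± 0.20 (SE, n = 3 per group, limma adjusted p = 0.00206). H1f0, the linker histone that accumulates in differentiated and resting cells, was at 13.2, 26.6 and 24.3 RPKM in ESC against 68.8, 80.4 and 143 in MEF, a difference of −2.12 ± 0.42 (SE, n = 3 per group, limma adjusted p = 0.0262). Supt16h, a subunit of the FACT chaperone, differed by 1.41. Among 26 subunits of the BAF remodelling complex, 2 were called higher, Arid1a (difference 1.46 ± 0.25) and Actl6a (difference 1.38 ± 0.33), a share near that of all genes. The median of that list was 0.11 and turned to −0.04 with libraries centred. Of 43 importins, exportins and pore proteins, 41 had a positive difference and 4 were called higher: Xpo1, Nup133, Kpna2 and Nup88. That share, 9.3%, was near the 9.19% of all genes called in either direction. Xpo1, the main export receptor of proteins, was at 8.81, 7.56 and 9.2 RPKM in ESC against 1.95, 2.39 and 1.84 in MEF, a difference of 1.64 ± 0.19 (SE, n = 3 per group, limma adjusted p = 0.00629). Actl6a lost its call without any 1 library (limma adjusted p up to 0.124), H2afz without any library but ESC3 (0.127), Hmgb3 without any library but MEF1 (0.0966) and H1f0 without any library but MEF3 (0.0792). Nup133 lost its call without any library but ESC2 (limma adjusted p up to 0.0983), Kpna2 without any library but ESC1 (0.112), Nup88 without any library but MEF3 (0.134) and Arid1a without ESC1, MEF1 or MEF2 (0.0738). Supt16h lost its call without MEF2 (limma adjusted p up to 0.0506).

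Of 44 genes of replication origins and forks, which copy DNA, 16 were called higher in ESC and 0 lower, and 43 had a positive difference, with a median of 0.89. The list held 0.581, 0.587 and 0.643% of the estimated reads in ESC and 0.236, 0.266 and 0.147% in MEF, and every ESC library was above every MEF library. At origins, Orc1, the subunit of the origin recognition complex that is present only in part of the cycle, was at 2.93, 2.17 and 2.35 RPKM in ESC against 0.338, 0.355 and 0.188 in MEF. That difference, 1.42 ± 0.19 (SE, n = 3 per group, limma adjusted p = 0.00924), was the one with the smallest p of the list. The other origin subunits, Orc2 to Orc6, differed by 0.73, 0.52, −0.02, 0.20 and 0.51 and were not called. In the helicase, Mcm7 was at 21.2, 23.4 and 23.8 RPKM in the ESC libraries and 6.79, 8.22 and 4.61 RPKM in the MEF libraries. Its groups did not overlap, and it differed by 1.69 ± 0.25 (SE, n = 3 per group, limma adjusted p = 0.0123). Mcm2, Mcm3 and Mcm5 were also called, with differences of 1.66, 1.33 and 2.03, while Mcm4 and Mcm6 differed by 0.90 and 0.90 and were not called (limma adjusted p = 0.195 and 0.0772). At the fork, Timeless, which keeps helicase and polymerase together, differed by 1.44 ± 0.23 (SE, n = 3 per group, limma adjusted p = 0.0141). Pold3, whose promoter is shown above, was at 2.62, 2.19 and 2.08 RPKM in ESC against 0.406, 0.58 and 0.398 in MEF, a difference of 1.17 ± 0.18 (SE, n = 3 per group, limma adjusted p = 0.0141). The sliding clamp Pcna was high in both groups, at 43.3, 51.8 and 39.5 RPKM in ESC against 27.6, 25.3 and 15.9 in MEF, and was not called, with a difference of 0.97 ± 0.29 (SE, n = 3 per group, limma adjusted p = 0.0791). The count of 16 was 6 without ESC1, 6 without ESC2, 8 without ESC3, 4 without MEF1 and 2 without MEF2, and 11 with libraries centred on the median gene. Mcm3 lost its call without any library but MEF3 (limma adjusted p up to 0.0856), Mcm5 without ESC2, MEF1 or MEF2 (0.0687), Pold3 without ESC1, MEF1 or MEF2 (0.0598) and Mcm2 without MEF1 or MEF2 (0.0673). Timeless lost its call without MEF1 or MEF2 (limma adjusted p up to 0.062).

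Mismatch repair corrects errors of replication, and Msh6, which recognises single mismatches, was higher in ESC. Of 23 genes of mismatch and base excision repair, 3 were called higher, among them Msh6 and Parp1, and all 3 kept the call. Msh6 was at 54.3, 39.2 and 37.9 RPKM in the ESC libraries and 3.98, 3.24 and 1.76 RPKM in the MEF libraries. The lowest ESC library was above 37 RPKM and the highest MEF library under 4 RPKM, and the difference was 3.51 ± 0.30 (SE, n = 3 per group, limma adjusted p = 0.0037). Msh3, which recognises larger loops, was at 0.185, 0.224 and 0.214 RPKM in ESC against 0.144, 0.0606 and 0.104 in MEF and was not called, with a difference of 0.13 ± 0.04 (SE, n = 3 per group, limma adjusted p = 0.0801). Parp1, which senses DNA breaks, was at 9.01, 10.9 and 16.6 RPKM in ESC against 1.52, 1.79 and 2.62 in MEF, a difference of 2.12 ± 0.29 (SE, n = 3 per group, limma adjusted p = 0.00982). Apex1, the main abasic endonuclease, was high in both groups, at 47.1, 45 and 63.4 RPKM in ESC against 44.5, 25.7 and 19.3 in MEF, and was not called. On the homologous recombination and Fanconi list, 26 of 29 genes had a positive difference and 3 were called higher, or 1 without ESC1, ESC3, MEF1 or MEF2. The share of 10.3% was near the 9.19% of all genes called in either direction. Brca2, a homologous recombination protein, differed by 1.41 ± 0.21 (SE, n = 3 per group, limma adjusted p = 0.0121). Fancg, a subunit of the Fanconi core complex, differed by 1.32 ± 0.31. Of 14 telomere genes 3 were called higher: Dkc1, described below, Terf1, a telomere binding protein with a difference of 1.10 ± 0.20, and Rtel1, a helicase with a difference of 1.19 ± 0.29. Rtel1 lost its call without any 1 library (limma adjusted p up to 0.132), Fancg without any library but MEF3 (0.122) and Terf1 without ESC2, MEF1 or MEF2 (0.0944).

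**Figure D2:**
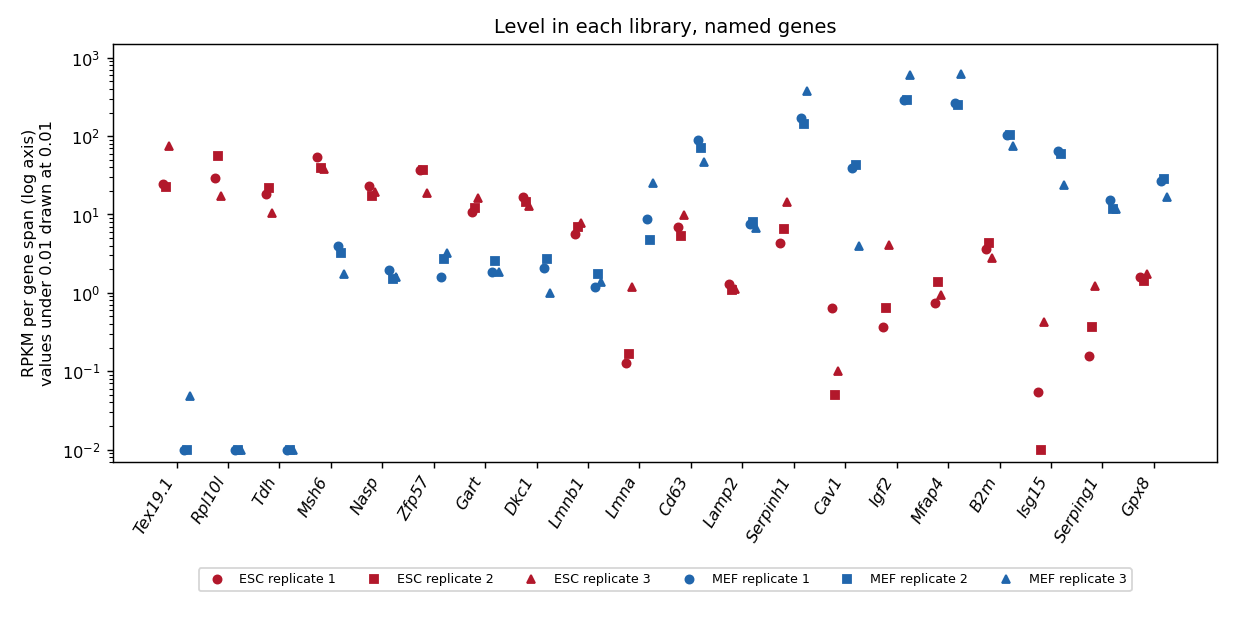
RPKM per kilobase of gene span (log axis, values under 0.01 drawn at 0.01) of 20 named genes in each of the 3 ESC (red) and 3 MEF (blue) libraries, with 1 symbol per replicate. The groups do not overlap in any of the 20 genes, and MEF3 lies apart from the other MEF libraries for Cav1 and Lmna.

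Of 38 genes of ribosome assembly in the nucleolus, 13 were called higher in ESC and 0 lower, and 37 had a positive difference, with a median of 1.08. Dkc1, the pseudouridine synthase of ribosomal and telomerase RNA, was at 16.7, 14.5 and 12.8 RPKM in the ESC libraries and 2.05, 2.68 and 1.01 RPKM in the MEF libraries. All ESC libraries were above all MEF libraries, with a difference of 2.47 ± 0.28 (SE, n = 3 per group, limma adjusted p = 0.00616). Rrp1b, a nucleolar processing factor, differed by 1.46 ± 0.21 (SE, n = 3 per group, limma adjusted p = 0.0107). Polr1b, the second largest subunit of RNA polymerase I, differed by 1.33 ± 0.20. Gnl3, nucleostemin, differed by 1.35 ± 0.23. The list held 1.01, 0.935 and 0.975% of the estimated reads in ESC and 0.443, 0.425 and 0.224% in MEF, lowest in MEF3. The count of 13 was 3 without ESC1, 5 without ESC2, 6 without ESC3, 3 without MEF1 and 3 without MEF2, and 7 with libraries centred. Gnl3 lost its call without ESC1, MEF1 or MEF2 (limma adjusted p up to 0.0736) and Polr1b without ESC1 or MEF1 (0.0551).

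Core spliceosome genes all had a positive difference, 41 of 41, where 8820 of all 15176 genes had one. Their median was 0.83, and 7 were called higher. Srsf7, a serine-arginine rich splicing factor, was at 31.9, 31.5 and 33.1 RPKM in ESC against 7.15, 11.6 and 11.3 in MEF, a difference of 1.62 ± 0.25 (SE, n = 3 per group, limma adjusted p = 0.0136). Snrpg, a protein of the Sm ring, differed by 1.54 ± 0.24. The other 5 were Snrpa, U2af1, Prpf8, Srsf2 and Srsf3. The count of 7 was 2 without ESC1, 3 without ESC2, 4 without ESC3, 1 without MEF1 and 1 without MEF2, and 2 with libraries centred. Among 19 splicing regulators of particular cell types, 2 were called higher, Rbpms2 and Celf1. That was 10.5%, near the 9.19% of all genes called in either direction. Rbpms2, an RNA binding protein of muscle and heart, was at 6.04, 4.72 and 4.66 RPKM in the ESC libraries and 0.224, 0.0802 and 0.182 RPKM in the MEF libraries, a difference of 2.40 ± 0.19 (SE, n = 3 per group, limma adjusted p = 0.00301) with no overlap. Celf1, a regulator of alternative splicing, differed by 1.25 ± 0.23. The median of that list was 0.07 and turned to −0.07 with libraries centred. Of 18 genes of microRNA processing and of the Lin28 pathway, 3 were called higher: Lin28a, Trim71 and Eif2c1. Lin28a, which blocks maturation of let-7, was at 27.9, 20.6 and 15.9 RPKM in the ESC libraries and 0, 0.225 and 0.0134 RPKM in the MEF libraries, and Trim71, itself a let-7 target, at 1.42, 2.77 and 2.21 RPKM in ESC against 0.00318, 0.00743 and 0.00392 in MEF. Their differences were 4.35 ± 0.26 (SE, n = 3 per group, limma adjusted p = 0.0014) and 1.62 ± 0.21 (SE, n = 3 per group, limma adjusted p = 0.0089). Srsf2 lost its call without any 1 library (limma adjusted p up to 0.134), Eif2c1 without any 1 library (0.141), Snrpa without any library but MEF3 (0.124) and U2af1 without any library but MEF3 (0.0875). Srsf3 lost its call without ESC1, ESC2, MEF1 or MEF2 (limma adjusted p up to 0.0922), Celf1 without ESC1, ESC2, MEF1 or MEF2 (0.0786), Prpf8 without ESC1, MEF1 or MEF2 (0.0598) and Snrpg without MEF1 or MEF2 (0.0579). Srsf7 lost its call without ESC1 (limma adjusted p up to 0.0535).

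Other genes of protein synthesis and turnover gave few calls. Of 20 cytosolic aminoacyl-tRNA synthetases, which charge tRNA with amino acids, 0 were called by limma in either direction, and 2 had an unadjusted p under 0.05. Their median was 0.09, and −0.05 with libraries centred. Values per kilobase of exon also gave 0 calls. The list took 0.296, 0.295 and 0.455% of the estimated reads in ESC and 0.303, 0.306 and 0.339% in MEF, and the groups overlapped. Of 31 constitutive proteasome subunits, 28 had a positive difference and 2 were called higher, Psmc1 (difference 1.02 ± 0.21) and Psmd12 (difference 1.01 ± 0.22). That was 6.45%, where 4.68% of all genes were called higher and 9.19% in either direction. Psmc1 lost its call without any 1 library (limma adjusted p up to 0.103) and Psmd12 without any library but ESC2 (0.109).

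In metabolism, of 27 genes of purine and pyrimidine synthesis, 9 were called higher and 0 lower, with a median of 0.86. The pathway to inosine monophosphate has 6 enzymes in these cells, in the order Ppat, Gart, Pfas, Paics, Adsl and Atic. Their differences were 1.40, 2.16, 2.04, 1.25, 0.86 and 0.67. Gart, which catalyses 3 of the steps, was at 10.6, 12 and 16.3 RPKM in the ESC libraries and 1.86, 2.56 and 1.85 RPKM in the MEF libraries. Pfas, the next enzyme, was at 8.16, 10.9 and 10.6 RPKM in the ESC libraries and 1.44, 2.08 and 1.39 RPKM in the MEF libraries. Both had every ESC library above every MEF library and limma adjusted p of 0.00542 and 0.00517. Paics, Adsl and Atic were not called (limma adjusted p = 0.0547, 0.158 and 0.118). In pyrimidine synthesis Cad, which carries out the opening steps, was at 11.2, 16.9 and 19.4 RPKM in ESC against 2.01, 2.45 and 3.89 in MEF, a difference of 2.15 ± 0.30 (SE, n = 3 per group, limma adjusted p = 0.0105). The ribonucleotide reductase subunits Rrm1 and Rrm2 differed by 0.11 and 1.06, and the salvage enzymes Hprt and Aprt by 0.73 and 0.79. None of these 4 was called. The count of 9 was 3 without ESC1, 3 without MEF1 and 4 without MEF2. Ppat lost its call without ESC1 or MEF1 (limma adjusted p up to 0.0605).

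Tdh, Gldc and Amt, enzymes that break down threonine and glycine, were higher in ESC, and Phgdh, an enzyme of serine synthesis, was lower. Tdh, threonine dehydrogenase, which starts the breakdown of threonine to glycine and acetyl-CoA, was at 18.5, 21.7 and 10.6 RPKM in the ESC libraries and 0, 0 and 0.001 RPKM in the MEF libraries, where 0.001 stands in place of 0. It was thus listed at 0 in MEF and differed by 4.11 ± 0.29 (SE, n = 3 per group, limma adjusted p = 0.00212). Gldc and Amt, subunits of the glycine cleavage system, were at 1.65, 1.46 and 1.27 RPKM in ESC against 0.00657, 0.0234 and 0.0162 in MEF and at 9.5, 3.29 and 12.2 RPKM in ESC against 0.0179, 0.322 and 1.3 in MEF. Gldc differed by 1.27 ± 0.13 (SE, n = 3 per group, limma adjusted p = 0.00517), and Amt by 2.53 ± 0.52 (SE, n = 3 per group, limma adjusted p = 0.0296). Ahcy, which clears S-adenosylhomocysteine, was the other gene called higher, with a difference of 1.58 ± 0.29. Phgdh, the entry to serine synthesis from glucose, went the other way at 1.22, 0.964 and 1.86 RPKM in ESC against 5.56, 4.77 and 4.76 in MEF, a difference of −1.38 ± 0.22 (SE, n = 3 per group, limma adjusted p = 0.0147). Psat1, the following enzyme, was at 2.66, 2.43 and 4.39 RPKM in ESC against 9.22, 9.53 and 3.58 in MEF and was not called. In all, 4 of the 25 genes of this list were called higher and 1 lower. Amt lost its call without ESC1, ESC3, MEF1 or MEF2 (limma adjusted p up to 0.0982), Ahcy without ESC2, MEF1 or MEF2 (0.0859) and Phgdh without ESC1, MEF1 or MEF2 (0.0606).

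The lists of energy metabolism gave 0 calls on the deposited scale. Cholesterol synthesis gave a share of 9.52%, near the 9.19% over all genes. Of 19 fatty acid oxidation genes and 35 subunits of mitochondrial complex I, 0 were called by limma in either direction, and 3 of each list had an unadjusted p under 0.05. Their medians were 0.16 and 0.28, and per kilobase of exon 1 gene of each list was called higher. Of 21 cholesterol synthesis genes, 18 had a negative difference and 2 were called lower, Cyp51 (difference −1.12 ± 0.20) and Sc5d (difference −1.60 ± 0.30). Glutathione and oxidant defence genes were called in both directions, with 3 of 27 higher (Gsta4, Txnrd1, Sod1) and 3 lower (Gpx8, Mgst1, Gstm2). Gpx8, a peroxidase of the endoplasmic reticulum, was at 1.6, 1.44 and 1.73 RPKM in the ESC libraries and 27.1, 28.8 and 16.8 RPKM in the MEF libraries. Mgst1, a membrane-bound transferase, was at 0.0274, 0.0402 and 0.127 RPKM in ESC against 2.61, 2.47 and 2.63 in MEF. Gsta4, a transferase for lipid aldehydes, was at 8.8, 6.13 and 15.6 RPKM in ESC against 0.223, 0.347 and 1.27 in MEF. The differences were −3.25 ± 0.26, −1.75 ± 0.17 and 2.76 ± 0.40, with limma adjusted p of 0.00301, 0.00412 and 0.0117. Txnrd1 lost its call without any 1 library (limma adjusted p up to 0.111), Sod1 without any 1 library (0.153), Sc5d without any library but MEF3 (0.0817) and Gstm2 without any library but ESC3 (0.0978). Cyp51 lost its call without ESC2, MEF1 or MEF2 (limma adjusted p up to 0.0809) and Gsta4 without MEF2 (0.0516).

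**Figure D3:**
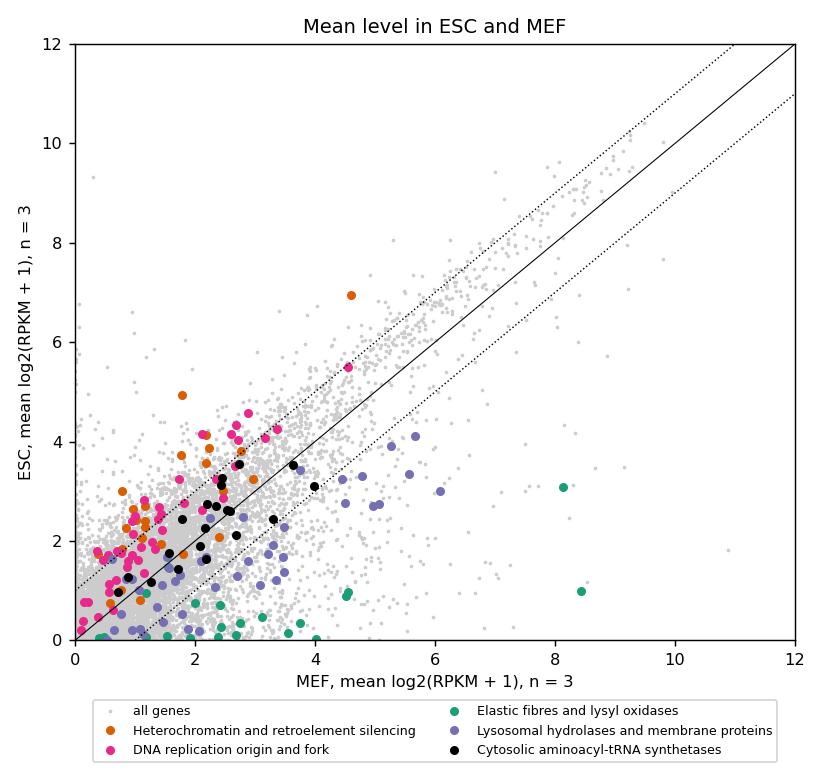
Mean log2(RPKM + 1) of each gene in ESC (vertical) against MEF (horizontal), n = 3 libraries each, with all genes in grey and 5 gene classes in colour. The solid line marks equal levels and the dotted lines a difference of 1. Elastic fibre and lysosomal genes lie mostly below the line, heterochromatin and replication genes mostly above it, and the 20 aminoacyl-tRNA synthetases along it.

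Of 44 lysosomal hydrolases and membrane proteins, 14 were called lower in ESC and 1 higher, and 39 had a negative difference, with a median of −1.15. Cd63, a tetraspanin of late endosomes and lysosomes, was at 6.85, 5.26 and 9.75 RPKM in the ESC libraries and 89.9, 69.9 and 46.9 RPKM in the MEF libraries. Lamp2, a main glycoprotein of the lysosomal membrane, was at 1.29, 1.1 and 1.12 RPKM in the ESC libraries and 7.6, 8.13 and 6.74 RPKM in the MEF libraries. Lipa, the acid lipase for cholesteryl esters, was at 0.111, 0.265 and 0.153 RPKM in the ESC libraries and 2.58, 2.54 and 2.89 RPKM in the MEF libraries. No ESC value reached a MEF value in these 3 genes, and the differences were −3.06 ± 0.35, −1.97 ± 0.18 and −1.64 ± 0.18, with limma adjusted p of 0.00592, 0.00384 and 0.00525. The cathepsins Ctsb, Ctsd and Ctsl were called lower, with differences of −2.33, −2.22 and −1.55, and Ctsa, Ctsz and Ctsf were not called. The gene that was higher, Manba, a mannosidase, was at 2.14, 2.38 and 1.85 RPKM in ESC against 0.361, 0.6 and 0.676 in MEF, a difference of 1.02 ± 0.19 (SE, n = 3 per group, limma adjusted p = 0.0234). The list held 0.31, 0.334 and 0.334% of the estimated reads in ESC and 0.911, 0.859 and 1.36% in MEF, highest in MEF3. That library also had the highest sum over 13 macrophage markers, 266.9 RPKM against 22.58 and 33.31 RPKM in the other MEF libraries and 3.599 to 11.4 RPKM in ESC. The part of such cells in the lysosomal values was not tested. Without MEF3 14 genes were called lower, and the count was 5 without ESC1, 6 without ESC2, 5 without MEF1 and 4 without MEF2. Ctsb lost its call without any library but MEF3 (limma adjusted p up to 0.0793), Ctsd without any library but MEF3 (0.118), Ctsl without any library but MEF3 (0.113) and Manba without ESC1, ESC2, MEF1 or MEF2 (0.0844).

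Autophagy genes were called in both directions. Of 24, 2 were called lower, Gabarap and Wipi1, and 1 higher, Bnip3, with a median of 0.18. The share called was 12.5%, against 9.19% over all genes. Gabarap, which is conjugated to autophagosome membranes, was at 7.33, 3.75 and 10.9 RPKM in the ESC libraries and 55.3, 52.8 and 81 RPKM in the MEF libraries, a difference of −3.02 ± 0.40 (SE, n = 3 per group, limma adjusted p = 0.00914) with no overlap. Bnip3, a mitophagy receptor, and Wipi1, which binds phagophore membranes, differed by 1.07 and −1.16. Of 32 genes of transport from endoplasmic reticulum to Golgi, 11 were called lower in ESC and 0 higher, with a median of −0.67. Surf4, a receptor for secreted cargo, was at 6.14, 5.11 and 7.83 RPKM in the ESC libraries and 38.9, 34.2 and 29.9 RPKM in the MEF libraries. Kdelr3, 1 of 3 receptors that return chaperones from the Golgi, was at 0.272, 0.168 and 1.66 RPKM in the ESC libraries and 8.16, 11.3 and 9.85 RPKM in the MEF libraries. Sar1a, the GTPase that starts COPII coats, was at 4.93, 4.05 and 6.13 RPKM in ESC against 18.8, 21.5 and 15.6 in MEF. The differences were −2.27 ± 0.24, −2.76 ± 0.37 and −1.70 ± 0.24 (limma adjusted p = 0.00517, 0.00906 and 0.00999), and the groups did not overlap. The count of 11 was 4 without ESC1, 5 without ESC2, 5 without MEF1 and 6 without MEF2. Bnip3 lost its call without any 1 library (limma adjusted p up to 0.141) and Wipi1 without ESC1 or MEF2 (0.0608).

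Among enzymes that modify and fold collagen, 12 of 21 were called lower and 0 higher, and all 21 had a negative difference. Serpinh1, the collagen chaperone Hsp47, was at 4.38, 6.61 and 14.5 RPKM in the ESC libraries and 171, 143 and 371 RPKM in the MEF libraries. Fkbp10, a prolyl isomerase for procollagen, was at 1.29, 2.49 and 2.37 RPKM in the ESC libraries and 28.9, 25.3 and 48.1 RPKM in the MEF libraries. Leprel4, which is part of lysyl hydroxylase complexes, was at 0.355, 1.34 and 1.14 RPKM in ESC against 10.5, 10.2 and 20.3 in MEF, and P4ha3, a prolyl 4-hydroxylase subunit, at 0.178, 0.0121 and 0.0671 RPKM in ESC against 2.64, 2.31 and 2.07 in MEF. The differences were −4.61 ± 0.55, −3.50 ± 0.33, −2.89 ± 0.36 and −1.62 ± 0.18, with limma adjusted p of 0.00671, 0.00402, 0.0078 and 0.00547. Serpinh1 also had the highest ESC values of these 4 genes, up to 14.5 RPKM in ESC3, which had the highest summed level of the fibroblast list among ESC. The count of 12 was 5 without ESC1, 5 without ESC2, 5 without MEF1 and 7 without MEF2.

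Of 21 genes of elastic fibres and lysyl oxidases, 13 were called lower in ESC and 0 higher, with a median of −2.31. Mfap4, a microfibril-associated protein, was at 0.737, 1.36 and 0.949 RPKM in the ESC libraries and 263, 253 and 623 RPKM in the MEF libraries. That was a difference of −7.44 ± 0.41 (SE, n = 3 per group, limma adjusted p = 0.0013). Fbn1, the main protein of microfibrils, was at 0.0587, 0.0629 and 0.117 RPKM in the ESC libraries and 4.88, 5.12 and 6.47 RPKM in the MEF libraries. Fbln5, which helps elastin assemble, was at 0.0685, 0.0308 and 0.0509 RPKM in the ESC libraries and 4, 3.58 and 5.22 RPKM in the MEF libraries. Ltbp2, a microfibril protein of the latent TGF-beta binding family, was at 0.117, 0.344 and 0.151 RPKM in the ESC libraries and 4.71, 4.74 and 3.85 RPKM in the MEF libraries. The groups did not overlap in these genes, with differences of −2.58 ± 0.19, −2.31 ± 0.20 and −2.18 ± 0.19 and limma adjusted p of 0.0023, 0.00369 and 0.00374. All 5 lysyl oxidases, the enzymes that crosslink elastin and collagen, were called lower, with differences from −5.06 in Lox to −1.13 in Loxl4. The list held 0.0576, 0.0731 and 0.0617% of the estimated reads in ESC and 1.52, 1.53 and 2.04% in MEF. Leaving out 1 library gave 9 to 15 lower calls, and 9 of the 13 were called in every such fit. Loxl4 lost its call without any library but MEF1 (limma adjusted p up to 0.1).

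Of 21 proteoglycans, 6 were called lower and 0 higher. Bgn, the small leucine-rich proteoglycan biglycan, was at 4.23, 5.21 and 4.17 RPKM in the ESC libraries and 286, 296 and 321 RPKM in the MEF libraries, a difference of −5.77 ± 0.23 (SE, n = 3 per group, limma adjusted p = 0.000623). Sdc3, a transmembrane heparan sulphate carrier, was at 0.28, 0.193 and 0.266 RPKM in ESC against 4.79, 5.23 and 5.32 in MEF, and Podn, another leucine-rich proteoglycan, at 0.244, 0.0235 and 0.119 RPKM in ESC against 6.04, 3.84 and 10.6 in MEF. Their differences were −2.29 ± 0.17 and −2.71 ± 0.35, with no overlap. Among 7 genes of caveolae, membrane pits with a protein coat, 4 were called lower: Ptrf, Ehd2, Prkcdbp and Cav1. Ptrf, the coat protein cavin-1, was at 1.7, 1.21 and 2.32 RPKM in the ESC libraries and 32.3, 34.7 and 31.6 RPKM in the MEF libraries. Its difference was −3.64 ± 0.22 (SE, n = 3 per group, limma adjusted p = 0.00154), and Ehd2 and Prkcdbp, a neck ATPase and another cavin, differed by −2.94 ± 0.20 and −4.97 ± 0.47. Cav1, the caveolin itself, was at 0.647, 0.0494 and 0.0994 RPKM in the ESC libraries and 39.6, 42.7 and 3.98 RPKM in the MEF libraries. MEF3 was far below the other MEF libraries and above all ESC libraries, and the difference was −4.06 ± 0.87 (SE, n = 3 per group, limma adjusted p = 0.0331). Cav1 lost its call without any library but MEF3 (limma adjusted p up to 0.0994).

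Of 17 genes of the insulin-like growth factor axis, 8 were called lower in ESC and 1 higher, and the counts were the same in each of the 6 fits without 1 library. Of the ligands, Igf2 was at 0.365, 0.643 and 4.13 RPKM in the ESC libraries and 286, 291 and 607 RPKM in the MEF libraries. The difference was −7.36 ± 0.60 (SE, n = 3 per group, limma adjusted p = 0.00312), and ESC3 was the highest ESC library. Of the binding proteins, which hold the ligands in the medium and matrix, Igfbp3 was at 0.729, 3.98 and 2.09 RPKM in the ESC libraries and 99.5, 92.2 and 159.9 RPKM in the MEF libraries, a difference of −5.26 ± 0.45 (SE, n = 3 per group, limma adjusted p = 0.00369). Igfbp4, Igfbp5, Igfbp6 and Igfbp7 were also called lower, with differences of −4.60, −4.04, −3.33 and −1.42. Inside the cell, Grb10, an adaptor that dampens the receptors, was at 0.259, 0.636 and 0.68 RPKM in ESC against 6.17, 6.54 and 7.78 in MEF (difference −2.37 ± 0.21), and Irs1, which relays the signal, at 0.0735, 0.0297 and 0.0274 RPKM in ESC against 1.24, 1.01 and 1.17 in MEF (difference −1.03 ± 0.11). The receptors Igf1r and Igf2r differed by −0.20 and −0.77 and were not called. The gene called higher was Igf2bp1, an RNA binding protein of fetal tissues, at 12.2, 12.3 and 11.1 RPKM in the ESC libraries and 1, 0.99 and 0.705 RPKM in the MEF libraries. Its groups did not overlap, and it differed by 2.76 ± 0.18 (SE, n = 3 per group, limma adjusted p = 0.0019).

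Of 27 receptor tyrosine kinases, 4 were called lower, Pdgfrb, Pdgfra, Axl and Ddr2, and 0 higher. Axl, the receptor for Gas6, was at 0.316, 0.793 and 0.476 RPKM in the ESC libraries and 14, 14.4 and 9.35 RPKM in the MEF libraries, a difference of −3.14 ± 0.25 (SE, n = 3 per group, limma adjusted p = 0.003). Pdgfra and Pdgfrb, the receptors for platelet-derived growth factor, differed by −2.71 ± 0.18 and −3.10 ± 0.19, and Ddr2, a collagen receptor, by −1.69 ± 0.20. The share called was 14.8% of these kinases, against 9.19% over all genes. It was under that of all genes on the ephrin (5.88%), semaphorin (8%) and Hedgehog (6.25%) lists. Among 17 ephrins and Eph receptors 1 was called, Epha2, at 3.78, 4.92 and 5.17 RPKM in the ESC libraries and 0.611, 0.306 and 0.554 RPKM in the MEF libraries. It was higher in ESC by 1.91 ± 0.21 (SE, n = 3 per group, limma adjusted p = 0.0053). Of 25 semaphorins, plexins and neuropilins 2 were called lower, Nrp1 and Nrp2, coreceptors at the cell surface. Nrp1 was at 0.0113, 0.00339 and 0.0157 RPKM in ESC against 1.13, 1.47 and 1.17 in MEF, a difference of −1.16 ± 0.12 (SE, n = 3 per group, limma adjusted p = 0.00517). In the Hedgehog list Gas1, a coreceptor, was the 1 call among 16 genes, at 1.83, 0.307 and 0.944 RPKM in the ESC libraries and 42.6, 31.5 and 135 RPKM in the MEF libraries, a difference of −4.90 ± 0.60 (SE, n = 3 per group, limma adjusted p = 0.00757). Nrp2 lost its call without any library but MEF1 (limma adjusted p up to 0.0754).

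In the Notch list 1 of 21 genes was called higher and 3 lower. Rbpj, the DNA binding partner of Notch, was at 2.67, 2.4 and 1.76 RPKM in ESC against 0.504, 0.786 and 0.488 in MEF (difference 1.04 ± 0.21), while the target Hes1 was at 3.35, 2.93 and 3.51 RPKM in ESC against 8.15, 10.2 and 12 in MEF (difference −1.37 ± 0.21). The ligand Jag1 and the glycosyltransferase Lfng were lower, with differences of −1.06 and −1.12. The median of the list was 0.07 and turned to −0.07 with libraries centred. In the Hippo list 4 of 27 genes were called lower: Cyr61, Amotl2, Tead3 and Dchs1. Cyr61, a secreted protein and target of YAP, was at 6.21, 3.1 and 21.8 RPKM in the ESC libraries and 410.2, 410.1 and 181 RPKM in the MEF libraries, a difference of −5.16 ± 0.71 (SE, n = 3 per group, limma adjusted p = 0.00999). MEF3 was the lowest MEF library and ESC3 the highest ESC library. Tead3, a partner of YAP, Amotl2, an angiomotin, and Dchs1, an atypical cadherin, differed by −1.23, −1.82 and −1.95. The count of 4 was 1 without ESC1, 1 without ESC2, 2 without MEF1, 2 without MEF2 and 8 without MEF3. Rbpj lost its call without any library but ESC3 (limma adjusted p up to 0.0941), Jag1 without any library but MEF3 (0.0994), Amotl2 without ESC1, ESC2, MEF1 or MEF2 (0.088) and Dchs1 without ESC1, ESC2, ESC3 or MEF1 (0.089). Hes1 lost its call without ESC1, ESC2 or MEF2 (limma adjusted p up to 0.0623), Lfng without ESC1, ESC2 or MEF2 (0.0706) and Tead3 without ESC1, ESC2 or MEF2 (0.0762).

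Of 16 genes of antigen presentation, 7 were called lower in ESC and 0 higher, and 6 of the 7 kept the call. B2m was at 3.66, 4.38 and 2.77 RPKM in the ESC libraries and 104, 102 and 75 RPKM in the MEF libraries. The lowest MEF library was above 74 RPKM and the highest ESC library under 5 RPKM, a difference of −4.36 ± 0.26 (SE, n = 3 per group, limma adjusted p = 0.0014). H2-T23 was at 0.0828, 0.485 and 0.622 RPKM in the ESC libraries and 10.3, 6.08 and 14.4 RPKM in the MEF libraries, a difference of −2.96 ± 0.35 (SE, n = 3 per group, limma adjusted p = 0.00647). These are the genes whose promoters with the interferon word are shown above. The others of the 4 with that word, Psme1 and Erap1, differed by 0.05 ± 1.04 and −0.60 ± 0.14 and were not called. The classical heavy chains H2-D1 and H2-K1 differed by −3.65 and −3.70. These 2 genes are near-identical in sequence, and how shared reads were counted is not given in the sources used here, so their split is uncertain. Psmb8, a subunit of the immunoproteasome, was at 0.0692, 0.0507 and 0.153 RPKM in the ESC libraries and 6.44, 4.17 and 3.48 RPKM in the MEF libraries, a difference of −2.35 ± 0.25 (SE, n = 3 per group, limma adjusted p = 0.00517). Tap1, the peptide transporter, differed by −1.67 ± 0.21, and Tapbp, its tether to the heavy chain, by −1.94 ± 0.40. Tapbp lost its call without any library but ESC3 (limma adjusted p up to 0.091).

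Of 29 sensors of foreign nucleic acid and their transducers, 6 were called lower and 0 higher. Irf7, an interferon regulatory factor, was at 0.0398, 0 and 0.001 RPKM in the ESC libraries and 11.8, 7.82 and 8.15 RPKM in the MEF libraries, a difference of −3.32 ± 0.22 (SE, n = 3 per group, limma adjusted p = 0.0019). Tmem173, the adaptor STING, differed by −1.84 ± 0.29. The count of 6 was 2 without MEF1 and 3 without MEF2. Of 15 complement genes 5 were called lower: Serping1, C1ra, C3, C4b and C1qtnf6. Serping1, the C1 inhibitor, was at 0.157, 0.37 and 1.22 RPKM in the ESC libraries and 15.2, 11.7 and 11.8 RPKM in the MEF libraries, a difference of −3.18 ± 0.30 (SE, n = 3 per group, limma adjusted p = 0.00402). C1ra, a protease of the first component, was at 0, 0 and 0.00904 RPKM in the ESC libraries and 3.48, 4.1 and 7.4 RPKM in the MEF libraries, and C3, the central component, at 0.0187, 0.00342 and 0.00413 RPKM in ESC against 1.84, 1.25 and 2.23 in MEF. C1qa, a subunit made by macrophages and counted on the macrophage list, was at 0, 0 and 0.001 RPKM in ESC against 1.11, 0.507 and 39.5 in MEF and was not called. Of 37 apoptosis genes, 3 were called higher (Pmaip1, Birc5, Tnfrsf10b) and 3 lower (Tnfrsf1a, Ripk3, Bcl2l2). Pmaip1, the BH3-only protein Noxa, was at 4.88, 5.27 and 7.47 RPKM in the ESC libraries and 0.146, 0.746 and 0.643 RPKM in the MEF libraries, a difference of 2.19 ± 0.26 (SE, n = 3 per group, limma adjusted p = 0.00711). Tnfrsf1a, a receptor of tumour necrosis factor, was at 0.229, 0.283 and 0.829 RPKM in the ESC libraries and 6.86, 6.51 and 11.9 RPKM in the MEF libraries, a difference of −2.68 ± 0.30 (SE, n = 3 per group, limma adjusted p = 0.00592). Ripk3, the kinase of necroptosis, was at 2.18, 2.8 and 3.31 RPKM in ESC against 9.67, 9.7 and 8.16 in MEF. Tnfrsf10b lost its call without any 1 library (limma adjusted p up to 0.129), C4b without any library but MEF3 (0.112), Birc5 without any library but ESC2 (0.131) and Bcl2l2 without ESC1, ESC2, MEF1 or MEF2 (0.0922). C1qtnf6 lost its call without ESC1, ESC2 or MEF2 (limma adjusted p up to 0.0737), Tmem173 without MEF1 or MEF2 (0.0571) and Ripk3 without MEF2 (0.0536).

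Germline genes were detected in ESC at low levels. On the deposited scale 2 of 32 were called higher, Tex19.1 and Syce2, with a median of 0.34, although every ESC library was above every MEF library in 26 of 32, a pattern seen in 23.8% of all genes. Tex19.1, which restrains retroelements in germ cells, was at 24.6, 22.2 and 75.4 RPKM in the ESC libraries and 0, 0 and 0.0478 RPKM in the MEF libraries. Its estimated reads were 708, 582 and 1638 in ESC and 0, 0 and 1 in MEF, and it differed by 5.14 ± 0.48 (SE, n = 3 per group, limma adjusted p = 0.00402). The other members were below 5 RPKM in every library. Hormad1, a protein of the meiotic chromosome axis, was at 0.787, 0.572 and 0.713 RPKM in the ESC libraries and 0, 0 and 0.00371 RPKM in the MEF libraries. Its estimated reads were 291, 193 and 199 in ESC and 0, 0 and 1 in MEF. The groups did not overlap, but the difference of 0.75 ± 0.07 (SE, n = 3 per group, limma adjusted p = 0.00442) was under the size needed for a call. Tdrd12, a helicase of the piRNA pathway, was at 0.625, 0.336 and 0.776 RPKM in the ESC libraries and 0, 0 and 0.00151 RPKM in the MEF libraries, with estimated reads of 567, 278 and 532 in ESC and 0, 0 and 1 in MEF. Stag3, whose promoter is shown above, was at 0.449, 0.866 and 0.934 RPKM in the ESC libraries and 0, 0.0035 and 0.107 RPKM in the MEF libraries, with estimated reads of 191, 335 and 300 in ESC and 0, 2 and 33 in MEF. MEF3 was the highest MEF library for Stag3 and still below all ESC libraries. Syce2 lost its call without ESC1, ESC3, MEF1 or MEF2 (limma adjusted p up to 0.105).

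The median span of these genes was 46.44 kb, against 23.3 kb over all genes. Rescaling each value to the exon length in the GENCODE annotation of GRCm38.p6 changed the count. Per kilobase of exon 13 of the 32 were called higher and 1 lower, where 10.1% and 9.22% of the 14996 genes with lengths were called. The median was 1.54 against 0.13 over all genes. Hormad1 differed by 3.57, Tdrd12 by 3.27, Stag3 by 2.10 and Slc25a31 by 2.00, with limma adjusted p of 0.00122, 0.00306, 0.0104 and 0.0179. The gene called lower was Tdrd7, a tudor protein also made outside the germline, at 0.0184, 0.025 and 0.0417 RPKM in ESC against 0.289, 0.564 and 0.361 in MEF on the deposited scale and −2.40 per kilobase of exon. Other germline genes were under 1 RPKM in every library of both groups: Ddx4, the helicase Vasa, was at 0.0752, 0.0214 and 0.322 RPKM in ESC against 0.0328, 0.0668 and 0.0693 in MEF, and Piwil4 at 0.00338, 0.00742 and 0.0874 RPKM in ESC against 0, 0.00127 and 0.001 in MEF. The reads are the same on both scales, and only the length and so the weight of the added constant differ.

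**Figure D4:**
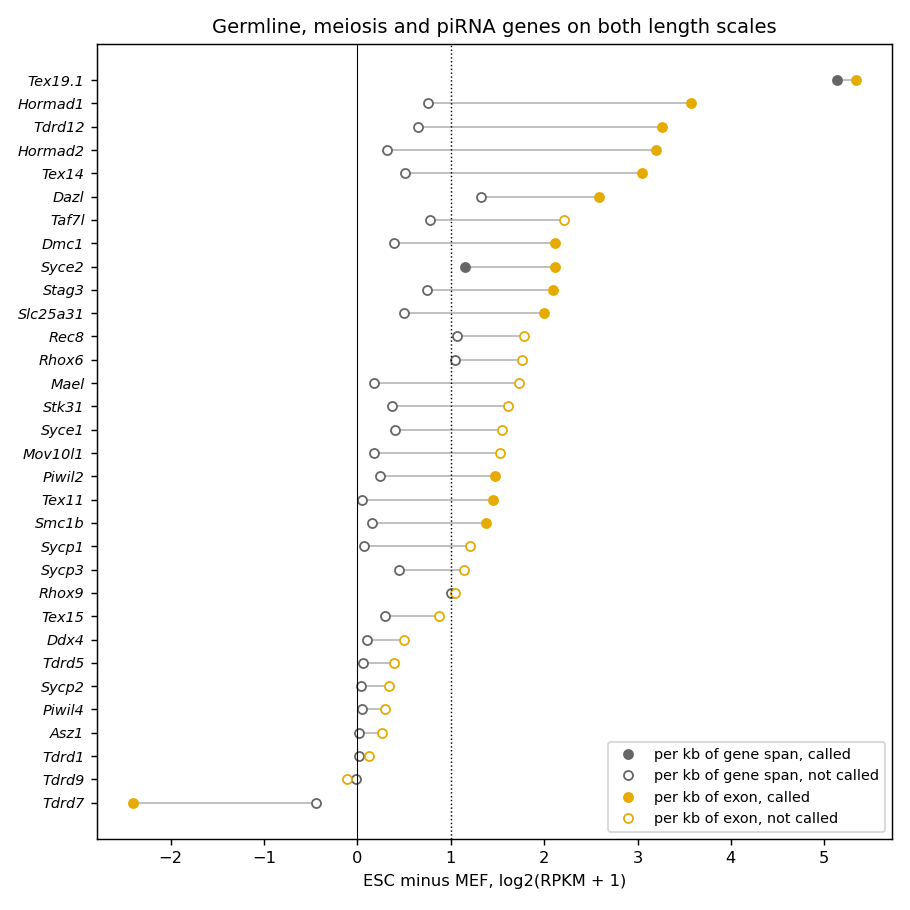
Difference ESC minus MEF in log2(RPKM + 1) of 32 germline, meiosis and piRNA genes per kilobase of gene span (grey) and per kilobase of exon (yellow), filled where called. The dotted line marks a difference of 1, which 2 called genes pass on the first scale and 13 on the second.

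The length used mattered across the table. The 14996 genes with lengths were split into 4 equal groups by span. Per gene span, 12.32% of the shortest genes (0.171 to 9.599 kb) and 3.521% of the longest (56.74 to 2961 kb) were called. Per kilobase of exon the order turned, with 15.92% of the shortest and 22.19% of the longest. Receptor tyrosine kinases, with a median span of 81.81 kb, went from 4 to 10 lower calls of 27. Semaphorins, plexins and neuropilins went from 2 to 9 lower calls of 25, and homologous recombination and Fanconi genes from 3 to 13 higher calls of 29. Mismatch and base excision repair went from 3 to 9 higher calls of 23. Hox factors, the regulators of the body axis, are short, with a median span of 3.45 kb, and also went from 8 to 18 lower calls of 30, where the 8 were 4 without ESC1 or ESC2. The 31 subunits of the constitutive proteasome had 2 higher calls on both scales. A class with few calls on the deposited scale is thus not shown to be alike in the 2 cell types.

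**Figure D5:**
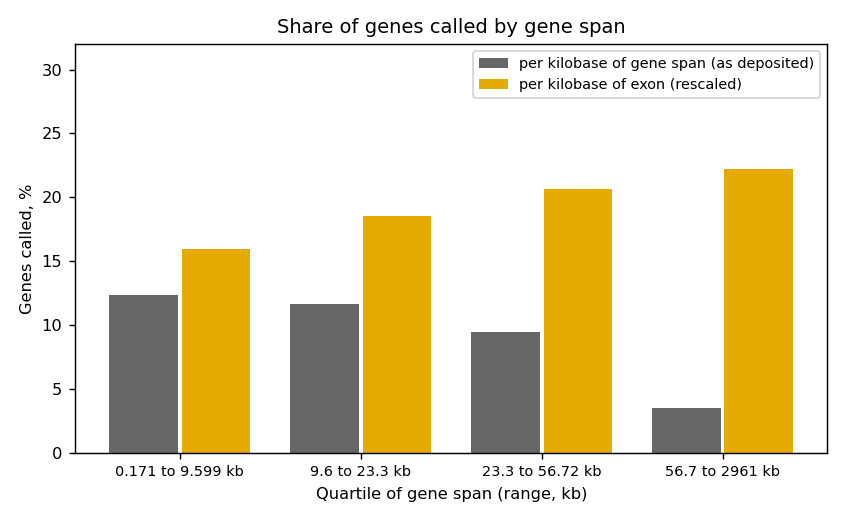
Share of genes called in either direction, in percent, in 4 equal groups of genes by span (range in kb), per kilobase of gene span as deposited (grey) and per kilobase of exon (yellow). The grey bars fall from 12.32% to 3.521% and the yellow bars rise from 15.92% to 22.19%.

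Outside the pluripotency and fibroblast markers, the genes with the largest differences were named by a rule that took, in each direction, the 12 called genes with the largest difference at a mean of 10 RPKM or more in the higher group. Among those higher in ESC, Foxh1, the partner of Smads in Nodal signalling, was at 15.7, 22.1 and 21.8 RPKM in the ESC libraries and 0, 0 and 0.001 RPKM in the MEF libraries, a difference of 4.37 ± 0.21 (SE, n = 3 per group, limma adjusted p = 0.00103). B3gnt7, a glycosyltransferase that extends keratan sulphate, was at 22.4, 30.5 and 15.9 RPKM in the ESC libraries and 0.0207, 0.0276 and 0.611 RPKM in the MEF libraries. Trap1a, a tumour antigen of the X chromosome, was at 24.2, 15 and 18.4 RPKM in the ESC libraries and 0.0564, 0 and 0.0232 RPKM in the MEF libraries. Both were high in every ESC library and near 0 in MEF1 and MEF2, with differences of 4.28 ± 0.32 and 4.27 ± 0.23. Bex4 and Bex1, small proteins of an X-linked family, were at 79.7, 46.5 and 35.5 RPKM in ESC against 0.757, 1.91 and 1.29 in MEF and at 67.9, 59.7 and 66.2 RPKM in ESC against 2.35, 4.13 and 1.62 in MEF. Rpp25, a subunit of the ribonucleases P and MRP, was at 29.4, 37.8 and 40.6 RPKM in ESC against 0.313, 0.879 and 2.16 in MEF, a difference of 4.21 ± 0.36 (SE, n = 3 per group, limma adjusted p = 0.00369). Chchd10, a mitochondrial intermembrane protein, was at 36.5, 51.8 and 98 RPKM in ESC against 0.313, 0.602 and 6.23 in MEF. Rpl10l, an intronless copy of a ribosomal protein gene, was at 29.6, 56.1 and 17.3 RPKM in the ESC libraries and 0, 0 and 0.001 RPKM in the MEF libraries, a difference of 4.99 ± 0.42 (SE, n = 3 per group, limma adjusted p = 0.00345). Its sequence is close to that of Rpl10 and the assignment of shared reads is not given here, so the value is uncertain, as for the predicted genes Gm3470 and Gm7325, which differed by 5.19 and 4.17. The RIKEN gene E130012A19Rik differed by 4.96, and Tex19.1 is described above. Bex1 and Tex19.1 also have close paralogs, with the same uncertainty. Chchd10 lost its call without MEF1 or MEF2 (limma adjusted p up to 0.0623).

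Among those lower in ESC, Mgp, an inhibitor of calcification, was at 0.179, 0.098 and 0.355 RPKM in the ESC libraries and 147, 160.2 and 162 RPKM in the MEF libraries, a difference of −7.03 ± 0.20 (SE, n = 3 per group, limma adjusted p = 0.000288). Dlk1, an imprinted transmembrane protein, was at 0.0574, 0.0945 and 0.428 RPKM in the ESC libraries and 65.6, 51.2 and 409 RPKM in the MEF libraries, and Cd248, the stromal surface protein endosialin, at 1.91, 0.516 and 2.11 RPKM in ESC against 117, 79 and 248 in MEF. Egr1, an immediate early transcription factor, was at 0.916, 1.6 and 0.475 RPKM in the ESC libraries and 84.2, 70.2 and 99.6 RPKM in the MEF libraries, a difference of −5.45 ± 0.29 (SE, n = 3 per group, limma adjusted p = 0.00128). Ly6a, the surface antigen Sca-1, was at 1.2, 1.35 and 2.1 RPKM in ESC against 169, 146 and 84.8 in MEF, a difference of −5.68 ± 0.33 (SE, n = 3 per group, limma adjusted p = 0.0014). The strains of the groups differ, and the part of strain in Ly6a and in the MHC genes cannot be told apart from that of cell type. Isg15, a ubiquitin-like protein induced by interferon, was at 0.0539, 0 and 0.429 RPKM in the ESC libraries and 65.3, 59.3 and 23.6 RPKM in the MEF libraries, a difference of −5.33 ± 0.43 (SE, n = 3 per group, limma adjusted p = 0.00306). Cdkn1c, an imprinted inhibitor of the cell cycle, was at 1.59, 0.184 and 3.51 RPKM in ESC against 46.8, 47.8 and 523 in MEF. MEF3 was far above the other libraries, and the difference was −5.48 ± 1.06 (SE, n = 3 per group, limma adjusted p = 0.0248). Thbs1, a secreted matrix glycoprotein, was at 12.8, 21.3 and 3.45 RPKM in ESC against 759, 703 and 122 in MEF. Mfap4, Igf2, Bgn and Igfbp3, described with their classes, complete the 12. Cdkn1c lost its call without ESC1, ESC2, MEF1 or MEF2 (limma adjusted p up to 0.0767) and Thbs1 without ESC1, MEF1 or MEF2 (0.0726).

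Gene families defined by their symbols alone gave further classes. Of 342 zinc finger genes named Zfp, 27 were called higher and 9 lower, a share of 10.53%, near the 9.19% over all genes. A positive difference was found in 249, against 8820 of all 15176 genes, with a median of 0.21. Leaving out 1 library gave 9 higher and 1 lower without MEF2, 10 and 3 without MEF1, 14 and 2 without ESC1 and 17 and 5 without ESC2. Centring the libraries gave 20 and 14 with a median of 0.07. Zfp534 was at 6.38, 5.47 and 5.67 RPKM in the ESC libraries and 0.0058, 0.064 and 0.0215 RPKM in the MEF libraries, a difference of 2.73 ± 0.17 (SE, n = 3 per group, limma adjusted p = 0.00176). Of 576 predicted genes named Gm, 38 were called higher and 2 lower, a share of 6.944% against 9.19% over all genes. These counts were 14 and 1 without MEF1, 17 and 1 without MEF2, 23 and 1 without ESC1, 24 and 1 without ESC2, 29 and 11 without ESC3, and 35 and 14 with libraries centred. Of 55 tripartite motif proteins, 4 were called higher and 2 lower, a share of 10.91%, near that of all genes. The counts were 2 higher without ESC1, ESC2, MEF1 or MEF2 and 1 lower without any 1 library. Trim6, a ubiquitin ligase, was at 13.2, 16.3 and 11.7 RPKM in ESC against 0.17, 0.0413 and 0.0699 in MEF (difference 3.74 ± 0.20), and Trim35 at 3.27, 2.07 and 3.62 RPKM in ESC against 15.5, 19.9 and 14.8 in MEF (difference −2.17 ± 0.25). Of 283 solute carriers, 11 were called higher and 10 lower, a share of 7.42% against 9.19% over all genes. The counts were 6 and 1 without ESC1, 4 and 2 without ESC2, 3 and 2 without MEF1 and 3 and 4 without MEF2, and 12 and 18 with libraries centred. Slc2a3, a glucose transporter of high affinity, was at 15.8, 15.9 and 11.7 RPKM in ESC against 0.16, 0.23 and 0.315 in MEF, a difference of 3.63 ± 0.21 (SE, n = 3 per group, limma adjusted p = 0.0013). Among families lower in ESC were genes with the symbol of galectins, which are sugar-binding proteins, with 5 of 8. The calcium-binding S100 proteins had 4 of 8. The galectin count was 2 without ESC1, ESC2, MEF1 or MEF2 and 3 without ESC3. Annexins, which bind membranes, had 4 of 12. The serpins had 4 of 21, Serpinf1, Serping1, Serpinh1 and Serpine2, and 0 were called higher in these 4 families. Lgals3bp, which has a galectin symbol but codes for a galectin ligand, was at 0.467, 0.813 and 0.363 RPKM in ESC against 38.5, 30.8 and 23.7 in MEF (difference −4.35 ± 0.25). Serpinf1, an inhibitor of angiogenesis, was at 0.273, 0.568 and 0.987 RPKM in ESC against 25.6, 27.6 and 67.8 in MEF (difference −4.56 ± 0.43). Of 12 chemokine ligands 3 were lower, or 1 without ESC1, ESC2, ESC3 or MEF2, and Cxcl12, which guides blood progenitors, was at 0.539, 0.637 and 0.14 RPKM in ESC against 20.4, 22.3 and 13.6 in MEF (difference −3.77 ± 0.27). Of 58 orphan G protein-coupled receptors 2 were called lower and of 63 potassium channels 2 were called higher, shares under that of all genes. Serpine2 lost its call without ESC1, ESC3, MEF1 or MEF2 (limma adjusted p up to 0.0811).

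Markers of other cells were summed by list. Of 13 macrophage markers, 2 were under 1 RPKM in every MEF library and 11 in every ESC library. The sum of the 13 was 22.58, 33.31 and 266.9 RPKM in MEF against 3.599 to 11.4 RPKM in ESC. The 1 called gene, Lyz2, was lower in ESC, at 0, 0 and 0.02 RPKM in the ESC libraries and 15, 22.6 and 97.2 RPKM in the MEF libraries. The groups did not overlap, and MEF3 was the highest library. Cd68, a protein of macrophage lysosomes, was at 1.98, 1.7 and 5.6 RPKM in ESC against 2.56, 5.86 and 71.7 in MEF, and C1qa and Pf4 were listed at 0 in ESC. Of the 13 genes, 12 had a negative difference. Of 11 endothelial markers 0 were called by limma and 3 had an unadjusted p under 0.05, and the summed level was 2.284 to 3.852 RPKM in ESC and 3.685 to 4.371 RPKM in MEF. Kdr and Flt1, receptors of vascular endothelial growth factor, were at 0.0148, 0.00905 and 0.001 RPKM in ESC against 0.922, 1.15 and 0.139 in MEF and at 0.043, 0.249 and 0.0315 RPKM in ESC against 2.48, 2.4 and 0.319 in MEF. Neither overlapped between groups and both were lowest in MEF3 among MEF, and without MEF3 both were called lower. Pecam1, which is also made by ESC, went the other way and was at 0.759, 0.714 and 0.66 RPKM in ESC against 0, 0.00234 and 0.027 in MEF, a difference of 0.76 ± 0.07 (SE, n = 3 per group, limma adjusted p = 0.00373). Of 11 keratinocyte markers 0 were called by limma and 2 had an unadjusted p under 0.05, and Sfn, a 14-3-3 protein of epithelia, was at 6.44, 3.33 and 70.2 RPKM in ESC against 0.471, 0.314 and 2.97 in MEF, with ESC3 far above the others. Of 11 skeletal muscle markers 1 was called higher in ESC, Mylpf, a myosin light chain, at 7.38, 17.7 and 42.4 RPKM in the ESC libraries and 0, 0.0419 and 0.927 RPKM in the MEF libraries. The muscle regulators Myod1 and Myog were under 1 RPKM in every library. Of 13 neural and glial markers, Stmn2, a neuronal tubulin binding protein, was called higher (difference 1.24 ± 0.20) and Sox10, a factor of neural crest and glia, lower, at 0, 0.00862 and 0.0208 RPKM in ESC against 1.54, 1.44 and 1.39 in MEF (difference −1.28 ± 0.12). Olig2, a factor of oligodendrocyte precursors, was at 0, 0 and 5.33 RPKM in ESC against 0.027, 0 and 0.001 in MEF, a level above 1 RPKM in ESC3 alone. The part of such cells in the differences above was not tested. Mylpf lost its call without ESC2, MEF1 or MEF2 (limma adjusted p up to 0.063) and Stmn2 without MEF1 or MEF2 (0.0676).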

How the data were processed

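Total RNA from 13 libraries was sequenced, and the authors deposited 1 table of expression values for them, of which the 3 ESC and 3 MEF libraries on the gene span scale were used. Values are RPKM per the file headers. Alignment was with TopHat 1.3.0 to mm9, per the submitters' processing notes, and for the counting tool, gene models, use of strand and any filter the sources used here give nothing. That the length is the gene span was inferred by comparing the steps between low values with gene lengths. These lengths were from the GENCODE annotation of GRCm38.p6, a later build, and were available for 14996 genes (98.8%). Of the lowest values above 0 in each library, 82.2 to 84.5% were whole reads within 0.05, at the library size chosen to make that share largest. One further ESC library on another length scale was left out. A symbol in 8 of the 15184 rows was dropped.

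The unfiltered log2(RPKM + 1) values were fitted with limma 3.58.1 in R 4.3.3, with a trend in the prior variance, over all 15176 genes and with Benjamini-Hochberg adjustment. The procedure was tested on simulated data. Alternatives were a pseudocount of 0.1, a filter of 1 RPKM in 2 libraries, quantile normalization, centring, exon length, all 13 libraries, a term for the kind of column, a replicate block and leaving out each library. The 46 lists and 40 families were chosen with earlier results of these data known. Named genes were up to 12 per direction with the largest difference at 10 RPKM or more, up to 4 per list with the smallest p and up to 2 in the opposite direction, and the member with the smallest p per direction in families with 3 or more calls. Other genes, such as the remaining members of a complex or pathway, were chosen after their values were seen. Some genes that the counts include are not reported here by name.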

Additional observations from a re-analysis of the deposited data

How the results depend on the processing

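The main counts were 1395 genes called, 710 higher and 685 lower in ESC. A pseudocount of 0.1 gave 2680, 1420 and 1260, and values per kilobase of exon gave 2899, 1517 and 1382 of 14996 genes. Centring on the median expressed gene gave 1087 lower calls beside 547 higher. Leaving out 1 library gave 583 to 1335 calls, 215 to 595 higher and 334 to 740 lower. A filter, quantile normalization, a fit of all 13 libraries and a term for the kind of column kept the counts within 1.5 times. Of the 175 called genes among 237 named, 122 were called in every fit without 1 library, and 0 reversed in any alternative. With a replicate block over the first 2 libraries of each group, which alone carry numbers, limma called 0, 0 higher and 0 lower, with 1 residual degree of freedom and 4599 genes at an unadjusted p under 0.05. The same 4 libraries without the block gave 1491 calls, 1053 of them shared with the 1395. Deviations of the same-numbered libraries correlated at 0.309, 0.218 and 0.568, but ESC1 correlated best with MEF2 (0.454), so the numbers 1 and 2 were not taken to pair the libraries. ESC3 correlated at −0.395 with MEF1 and −0.51 with MEF2, and it shares its kind of column with MEF3. The main fit has no term for that kind. With the term, 1835 genes were called, 912 higher and 923 lower, and 1392 of the 1395 kept their call. The cause of these shifts was not tested. The added constant of 1 compresses differences of genes under about 1 RPKM, also where they hold many reads. Depth limits genes with few reads.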
